A study of Mus musculus with 10 samples.

Results

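The replication-dependent histone genes are the genes that supply the bulk of the 4 core histones and of linker histone H1 during S phase. They were taken as the protein-coding genes of the deposited table whose GENCODE mouse symbol names an H1f1 to H1f5, H2ac, H2bc, H3c or H4c gene, a rule on symbols alone, chosen with earlier results of these data known. This gave 67 of 55401 genes, of which 5 encode H1, 18 H2A, 19 H2B, 12 H3 and 13 H4. RNA was measured in 10 subcutaneous tumors, 1 per library, from obese male C57BL/6J mice fed a high-fat diet. The tumors were grown in the flank from 75000 cells of KPN1.1, a mouse lung adenocarcinoma line, in animals that were 7 to 17 weeks old. Daily intraperitoneal liraglutide (0.2 µg per gram of body weight), an agonist of the GLP-1 receptor, was given to 5 mice and PBS vehicle to the other 5, and tumors were taken 19 to 22 days after injection. All 10 tumors descend from 1 cell line, and all hosts were obese, so the comparison covers liraglutide in obesity in that line alone.

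Cells need new histones when they copy their DNA, and the messengers of these genes accumulate in S phase and are degraded when it ends. Unlike nearly all other messengers they end in a conserved stem-loop in place of a poly(A) tail: the stem-loop binding protein Slbp holds it, and the U7 small nuclear ribonucleoprotein directs the cut that follows it. The genes lie in clusters, where Npat drives their transcription at the onset of S phase. A library made by poly(A) selection misses most of these messengers, whereas the libraries here were depleted of ribosomal RNA and primed with random primers, so transcripts with no tail could be counted.

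The stem-loop was read from the genome to check that the genes carry this mark of the family. In the GRCm39 genome a 16-base stem-loop with all 6 stem pairs lay 22 to 59 bases after the stop codon in 65 of the 67 genes. The exceptions were H2ac22 and H2bc21, in which none was found within 300 bases. The 3 forms shown here are the most frequent outside H4 (42 genes, all classes but H4), the most frequent in H4 (8 genes) and another H4 form (2 genes), with the loop in capitals:
H1, H2A, H2B and H3: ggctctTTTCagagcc
H4: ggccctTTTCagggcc
H4, other form: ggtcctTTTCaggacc
The stem set H4 apart from the other classes, which shared 1 opening. All 13 H4 genes had a stem opening with GGCCC (11 genes) or GGTCC (2 genes). In the other classes, all 52 genes with a stem-loop opened with GGCTC. A further variant of the loop, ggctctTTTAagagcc, was found in 8 genes, 1 of H2A, 4 of H2B and 3 of H3, namely H3c3, H3c6 and H3c7, the H3 genes with the highest levels.

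Promoters of the family also differed by class. Promoters of RefSeq (GRCm38.p6, 250 bases before to 50 after the start) were at hand for 57 of the 67 genes and were searched on both strands for 4 motifs, namely the CCAAT box, the TATA box as TATAAA, the octamer ATTTGCAT and the H1 element AAACACA. The first was present in all 5 H1, all 17 H2A, all 14 H2B and all 10 H3 genes, in 3 of 11 H4 genes and in 37.4% of all promoters. The octamer, which OCT1 can bind, was found in 6 of 17 H2A and 7 of 14 H2B genes and in no H1, H3 or H4 gene, against 1.74% of all promoters. AAACACA was present in 4 of 5 H1 genes, 2 H2A and 2 H2B genes and 7.18% of all promoters, and TATAAA in 34 of the 57 genes and 13.6% of all promoters. Matches of different motifs were counted separately even where they overlapped, and a match describes letters and not a bound site. Windows of neighbouring H2A and H2B genes on opposite strands can overlap, so 1 site can count for both genes. The octamers of H2ac12 and H2bc12, of H2ac8 and H2bc8 and of H2ac1 and H2bc1 were such shared sites. H2bc7, H2bc12, H2bc15, H2bc22 and H2ac8 counted for TATAAA only by a site shared with the neighbouring gene. The H2A and H2B counts are therefore not independent. A match could lie anywhere in the window, and some TATAAA matches lay far from the start, as in H4c6 and H4c17. The 180 bases before the start are shown for 1 gene with a high level in each class, matches in capitals:
H1f2 (chr13:23738627-23738806, plus strand): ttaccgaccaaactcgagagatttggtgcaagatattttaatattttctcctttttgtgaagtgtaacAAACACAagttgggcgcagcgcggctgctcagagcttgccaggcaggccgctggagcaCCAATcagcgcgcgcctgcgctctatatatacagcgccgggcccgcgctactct
H2ac4 (chr13:23750908-23751087, plus strand): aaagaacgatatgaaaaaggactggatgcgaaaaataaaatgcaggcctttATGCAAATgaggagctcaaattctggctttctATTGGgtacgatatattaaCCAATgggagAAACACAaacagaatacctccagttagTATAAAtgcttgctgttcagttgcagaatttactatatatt
H2bc3 (chr13:23746554-23746733, plus strand): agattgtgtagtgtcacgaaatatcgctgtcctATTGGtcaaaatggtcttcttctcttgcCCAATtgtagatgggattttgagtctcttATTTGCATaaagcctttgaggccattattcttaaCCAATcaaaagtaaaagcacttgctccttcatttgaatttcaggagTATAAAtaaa
H3c3 (chr13:23745522-23745701, minus strand): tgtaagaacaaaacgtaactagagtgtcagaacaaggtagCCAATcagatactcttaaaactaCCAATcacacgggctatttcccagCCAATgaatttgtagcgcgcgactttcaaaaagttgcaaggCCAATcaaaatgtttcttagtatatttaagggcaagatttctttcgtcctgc
H4c4 (chr13:23581388-23581567, plus strand): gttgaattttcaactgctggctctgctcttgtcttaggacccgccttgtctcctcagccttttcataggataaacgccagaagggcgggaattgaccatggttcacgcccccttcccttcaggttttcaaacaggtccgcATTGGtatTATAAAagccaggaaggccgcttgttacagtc
H1f2 had AAACACA at -112 and CCAAT at -54 from the start. In H2bc3 the octamer stood at -90 between CCAAT matches at -119 and -56, and H2ac4 carried it in the other orientation at -129. H3c3 had 4 CCAAT matches in this window, while H4c4 had TATAAA at -32 and only the reverse of CCAAT at -40.

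Total counts were 9927942 to 14480593 per tumor, and 3 counts corresponded to 0.207 to 0.302 counts per 1000000 (CPM) before scaling. Values below are CPM after TMM scaling of the library sizes. edgeR tested 17464 genes and called 0 of them (0.0%) at an adjusted P under 0.05. No adjusted P was below 0.482, whereas before adjustment 1675 genes (9.59%) had a P under 0.05. DESeq2 called 52 genes and limma-voom 0. Between tumors of the same group, counts varied at least 9.31 times as much as counting error alone would give. Among marker lists, the keratinocyte genes were higher with liraglutide (6 of 6 tested, summed level 9.12 to 21.6 CPM in vehicle and 7.43 to 216 CPM in liraglutide tumors), as were skeletal muscle (9 of 9, 208 to 880 against 506 to 1605 CPM) and leukocyte genes (15 of 16, 300.2 to 576 against 356 to 649 CPM). The keratinocyte sum was only 7.43 and 9.25 CPM in liraglutide tumors 1 and 3 and was highest in liraglutide tumor 2. Erythroid genes were lower (5 of 5, 27.2 to 74.9 against 15.6 to 33.5 CPM). Fibroblast (5 of 9 higher), endothelial (4 of 8) and adipocyte genes (1 of 4) gave no such uniform rise. Of all genes tested, 52.6% were lower. The epithelial tumor markers were present in all tumors (5479 to 10756 against 5691 to 7918 CPM). The part of these lists in the histone values was not tested, and in bulk tumors fewer cells of a type and less RNA per cell cannot be told apart.

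The 67 genes took 0.0968% to 0.198% of the counts of a tumor. H1 and H4 made up most of this. H1 held 35.6% to 41.8% of the histone counts in the 10 tumors, H4 27.1% to 30.9%, H2B 21.4% to 23.5%, H3 5.80% to 7.28% and H2A 2.25% to 3.26%, so the makeup was much the same in every tumor. Since genes of different length give different counts, levels between genes were set per kb of coding sequence. On that scale the summed level was 1375 CPM per kb for H4, 876 for H2B, 872 for H1, 244 for H3 and 110.3 for H2A, and the order of the classes was the same per kb of exon. Nucleosomes hold the 4 core histones in equal amounts, whereas these sums differed widely between the classes.

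How far a read could be placed differed by class. Windows of 100 bases, the length of a read, were taken from each coding sequence and searched in the genome: a median of 90.1% of the windows occurred once for H1, but 48.7% for H2B, 39.05% for H4, 27.7% for H3 and 24.4% for H2A. In 12 genes (H2ac7, H2ac11, H2ac18, H2ac19, H2ac23, H2ac24, H2bc23, H2bc24, H3c14, H3c15, H4c17 and H4c18) no window was unique, and a further 27 genes had unique windows in under 50%. Of the 12, 5 were listed at 0 in every tumor, while H4c17 and H4c18 still had counts, at 43.3 to 44.9 CPM per kb of coding sequence. How the authors treated reads that map to several places is not given in the sources used here. The levels of H2A and H3, of near-identical copies and of other genes with few unique windows are therefore uncertain. These include leading genes of H2B and H4, such as H2bc4 (5.38% of windows unique), H2bc15 (48.4%) and H4c8 (34.3%). The part of read placement in the low H2A and H3 levels was not tested.

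**Figure D1:**
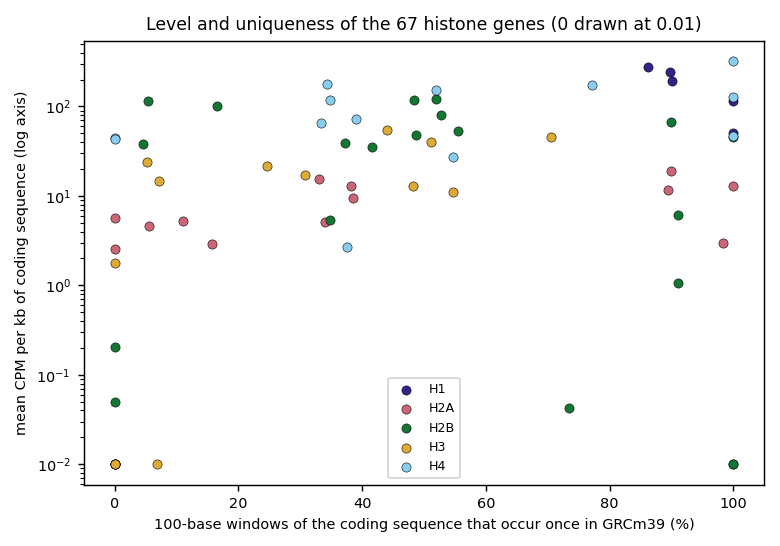
Mean CPM per kb of coding sequence (log axis, 0 drawn at 0.01) against the percentage of 100-base coding windows that occur once in GRCm39, 1 point per gene, coloured by class. The H1 genes lie at 86.2% or above, and 6 of the 8 genes with no count lie at 6.80% or below.

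In all, 8 genes had no count in any tumor, which allows up to 0.207 to 0.302 CPM of assigned reads per tumor at 3 counts. These were H2ac1, H2ac18, H2ac19, H2ac23, H2ac24, H2bc18, H3c13 and H3c14. H2ac1, the testis H2A gene, had unique windows throughout, and so had H2bc18, which shares exons with Gm42743 on the same strand. H2ac18 and H3c14 share exons with Gm20634. Gm42743 and Gm20634 were also listed at 0. H2ac18, H2ac19, H2ac23, H2ac24 and H3c14 had no unique window and H3c13 had 6.80%, so for these, and for H2bc18, reads that match several places or genes may have gone uncounted and the limit does not bound their RNA. A further 6 genes (H2ac7, H2bc1, H2bc23, H2bc24, H2bc27 and H3c15) had too few counts to be tested, which left 53 genes for the test, all 5 H1, 12 H2A, 14 H2B, 9 H3 and all 13 H4.

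Within H1, the proteins that bind the linker DNA between nucleosomes, H1f2 (chr13:23922791-23924350, plus strand) led at 275 CPM per kb of coding sequence, followed by H1f3 at 241, H1f4 at 191, H1f1 at 114 and H1f5 at 50.98. Among the core histones H4c4 was highest, at 323 CPM per kb, before H4c8 at 181 and H4c6 at 173. In H2B, H2bc3 (121), H2bc15 (119.6) and H2bc4 (115 CPM per kb) were highest. H3c7 (54.6), H3c6 (45.9) and H3c3 (40.2 CPM per kb) led H3, and H2ac20 (18.9) and H2ac4 (15.4 CPM per kb) led H2A. Some of these genes share exon bases with others, H1f4 with H2bc6 on the same strand. On opposite strands H4c4 does so with H2bc6 and H2bc3 with H3c3. With the strand setting not given, reads from such bases may have gone uncounted, which limits these levels. Per kb of exon the leaders changed in part, since some gene models run far past the stem-loop: 10 of the 15 genes in the leading 3 of their class were shared between both scales, and on the exon scale H1f3 was the lowest H1 gene (21.5 CPM per kb, with H1f2 at 112, H1f1 at 98.5 and H1f5 at 45.9), H2bc15 (119 CPM per kb), H2bc8 (62.01) and H2bc14 (48.2) led H2B, and H4c6 (137), H4c8 (119) and H4c12 (117) led H4.

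By genome position, 53 genes lie on chromosome 13, 10 on chromosome 3, 3 on chromosome 11 and 1 on chromosome 6. A stretch of chromosome 13 with 28 genes (GRCm39 chr13:23715220-23948389) gave 75.4% of all histone counts, the 18 genes at chr13:21899933-22021700 gave 15.5%, and the 5 genes at chr13:22219334-22227846 gave 3.05%. The last pair on chromosome 13, H2ac1 and H2bc1, the testis genes, gave 0.00115%. Chromosome 3, where 5 of 10 genes were at 0, gave 4.46%, with H4c14 its highest gene, chromosome 11 0.534% and H4c16 on chromosome 6 0.995%.

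The comparison of liraglutide with vehicle asked whether tumors of treated mice held less of these messengers. The histone sum was 1857, 2084, 2006, 954 and 1448 CPM in vehicle tumors 1 to 5 and 1385, 1658, 1128, 1124 and 1069 CPM in liraglutide tumors 1 to 5. The highest values were those of vehicle tumors 1, 2 and 3 and the lowest was that of vehicle tumor 4, and the groups overlapped. Vehicle tumors had a mean of 1669.8 ± 469 CPM and liraglutide tumors one of 1273 ± 248 CPM (SD, n = 5 each), a ratio of 0.762, and 4 of the 5 liraglutide tumors were below the second lowest vehicle tumor. The classes went along with each other: the ratio was 0.768 for H1, 0.665 for H2A, 0.777 for H2B, 0.749 for H3 and 0.756 for H4, and all 5 overlapped between the groups. No P is given for a sum, because the genes were chosen as a family with earlier results of these data known.

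**Figure D2:**
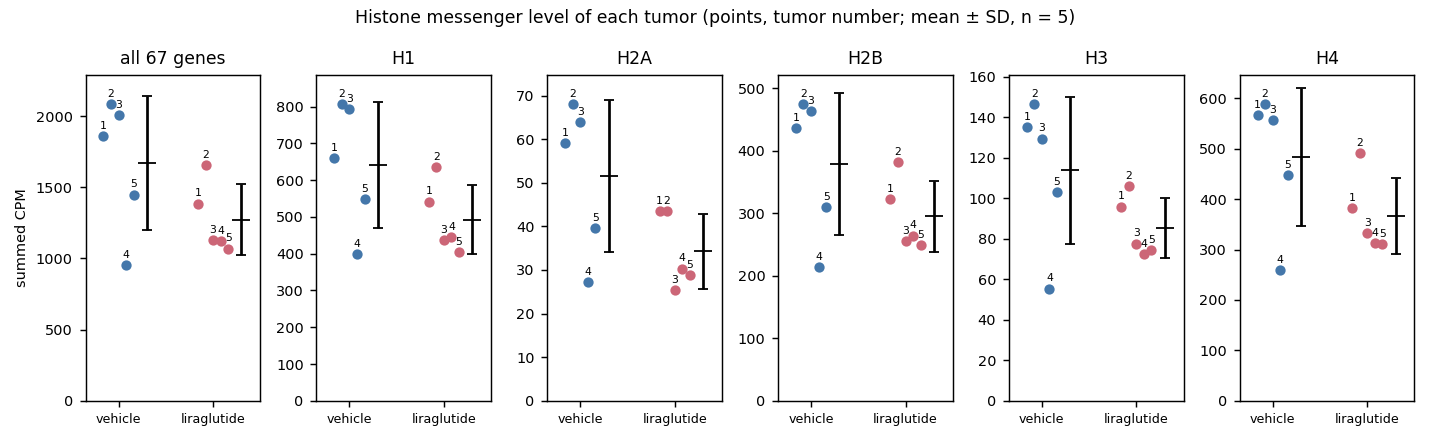
Summed CPM of the histone genes in each tumor, for all 67 genes and for each class. Points are tumors with their number, blue for vehicle and red for liraglutide, and the bar beside each group is the mean ± SD (n = 5). In every panel vehicle tumors 1, 2 and 3 are highest, and vehicle tumor 4 lies at or near the bottom.

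H1 summed to 660.2, 807, 793, 399 and 548 CPM in vehicle tumors 1 to 5 and 542, 635, 437, 445 and 405 CPM in liraglutide tumors 1 to 5. Vehicle tumor 4 was lowest and vehicle tumor 2 highest. H2B summed to 436, 474, 463, 214 and 309 CPM in vehicle tumors 1 to 5 and 323, 382, 255.3, 264 and 248.8 CPM in liraglutide tumors 1 to 5, again with vehicle tumor 4 lowest, and H4 to 567, 588, 557, 259 and 448 CPM in vehicle tumors 1 to 5 and 381, 491, 333, 313 and 311 CPM in liraglutide tumors 1 to 5, in the same pattern. H2A, the class with the fewest counts, summed to 59.1, 68.02, 63.8, 27.2 and 39.7 CPM in vehicle tumors 1 to 5 and 43.5, 43.5, 25.4, 30.3 and 28.7 CPM in liraglutide tumors 1 to 5. There the lowest tumor was liraglutide tumor 3, with vehicle tumor 4 just above it. H3 summed to 135, 146, 129, 55.4 and 103 CPM in vehicle tumors 1 to 5 and 95.9, 106, 77.6, 72.3 and 74.5 CPM in liraglutide tumors 1 to 5, and vehicle tumor 4 was lowest by a wide gap.

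Gene by gene, all 53 tested genes were lower with liraglutide, where 52.6% of all genes tested were lower. None was called, against 0.0% of all genes, and the smallest adjusted P of a histone gene was 0.482 (edgeR's quasi-likelihood test). At an unadjusted P under 0.05, 4 of the 53 (7.55%) were lower, against 5.62% of all genes tested. None had all 5 liraglutide tumors below all vehicle tumors, against 0.888% of all genes tested. The median log2 fold change was -0.40, with a range from -1.01 (H2ac6, with at most 79 counts in a tumor) to -0.10 (H2bc22), and the median of all genes was -0.02. By class the median was -0.40 for H1 (5 of 5 lower), -0.54 for H2A (12 of 12), -0.38 for H2B (14 of 14), -0.39 for H3 (9 of 9) and -0.38 for H4 (13 of 13). Leaving out 1 tumor moved the class medians by over 1.5 times in H2B, to -0.25 without vehicle tumor 2, and in H3, to -0.59 without vehicle tumor 4. All 5 liraglutide tumors were below the vehicle median in 32 of the 53 genes (60.4%), and in 15.2% of all genes. These genes share tumors, so their number is no count of independent observations.

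**Figure D3:**
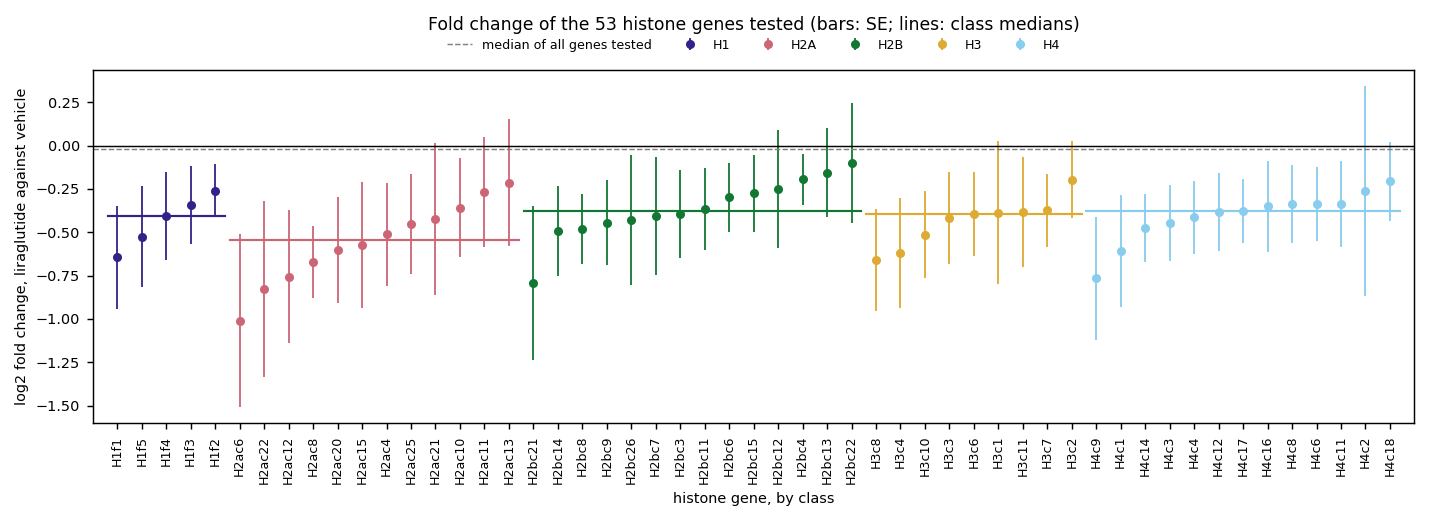
Log2 fold change with its SE for each of the 53 tested histone genes, grouped by class and ordered within it. Coloured lines are class medians and the dashed line is the median of all genes tested, -0.02. Every point lies below 0, from -1.01 to -0.10.

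The 5 genes with the smallest P were H2ac8, H4c14, H2bc8, H3c8 and H1f1, 1 from each class. H2ac8 (chr13:23754691-23755394, minus strand), an H2A gene, was at 5.94, 7.30, 6.82, 3.85 and 6.92 CPM in vehicle tumors 1 to 5 and at 4.58, 4.16, 2.96, 3.68 and 3.95 CPM in liraglutide tumors 1 to 5. Only vehicle tumor 4 lay among the liraglutide tumors. The fit gave a log2 fold change of -0.67 (SE 0.21, edgeR adjusted P = 0.482). An exact two-sided permutation test over the 10 tumors gave P = 0.0317, where 0.00794 is the smallest that 5 against 5 allow. The gene was chosen by its edgeR P in the same tumors, and the permutation P is not adjusted for that choice. H4c14 (chr3:96168998-96170627, minus strand), on chromosome 3, was at 52.9, 52.4, 47.5, 25.7 and 48.1 CPM in vehicle tumors 1 to 5 and at 34.6, 42.1, 29.3, 29.5 and 27.4 CPM in liraglutide tumors 1 to 5. Vehicle tumor 4 was lowest of all, and the other 4 vehicle tumors were above every liraglutide tumor, with a log2 fold change of -0.48 (SE 0.20, edgeR adjusted P = 0.509).

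H2bc8 (chr13:23755570-23756187, plus strand) was at 46.2, 51.5, 59.1, 27.7 and 38.7 CPM in vehicle tumors 1 to 5 and at 36.6, 39.8, 28.5, 30.4 and 24.7 CPM in liraglutide tumors 1 to 5. Here too vehicle tumor 4 fell among the treated tumors, and vehicle tumor 5 was below the highest of them, with a log2 fold change of -0.48 (SE 0.20, edgeR adjusted P = 0.512). H3c8 (chr13:23719592-23720121, plus strand) was at 8.29, 7.50, 7.56, 2.68 and 6.27 CPM in vehicle tumors 1 to 5 and at 4.32, 5.63, 2.96, 3.78 and 3.72 CPM in liraglutide tumors 1 to 5. The 4 other vehicle tumors were above all liraglutide tumors, with a log2 fold change of -0.66 (SE 0.29, edgeR adjusted P = 0.515). H1f1 (chr13:23947649-23948389, plus strand), an H1 gene with a compact, wholly unique coding sequence, was at 108, 116, 90.8, 40.7 and 89.4 CPM in vehicle tumors 1 to 5 and at 42.6, 97.4, 50.8, 47.4 and 46.3 CPM in liraglutide tumors 1 to 5. Liraglutide tumor 2 stood with the vehicle tumors, and vehicle tumor 4 was below all treated ones, with a log2 fold change of -0.65 (SE 0.30, edgeR adjusted P = 0.521). The exact permutation P of H4c14, H2bc8, H3c8 and H1f1, also not adjusted for the choice of genes, was 0.103, 0.0952, 0.127 and 0.159.

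Genes with the highest levels per kb of exon, and the H1 genes H1f3 and H1f5, were lower too, and none was called. Without vehicle tumor 2 the log2 fold change of H1f3 was -0.20, of H2ac15 -0.37, of H2bc15 -0.17 and of H3c7 -0.24, each nearer 0 by over 1.5 times. H1f3 was at 187, 245, 215, 94.9 and 151 CPM in vehicle tumors 1 to 5 and at 147, 184, 122, 127 and 123 CPM in liraglutide tumors 1 to 5, with a log2 fold change of -0.34 (SE 0.23, edgeR adjusted P = 0.625). H1f4 was at 155, 183, 191, 75.6 and 109.9 CPM in vehicle tumors 1 to 5 and at 119, 150.4, 88.7, 99.8 and 81.7 CPM in liraglutide tumors 1 to 5, with a log2 fold change of -0.40 (SE 0.25, edgeR adjusted P = 0.610). Both were highest in vehicle tumors 2 and 3 and lowest in vehicle tumor 4. H1f5 was lower by a log2 fold change of -0.53. H4c6, at 59.6 ± 15.8 CPM with vehicle and 47.2 ± 11.6 CPM with liraglutide (SD, n = 5), had a log2 fold change of -0.34, and H4c8 and H4c12 had -0.34 and -0.38. In H3 the values were -0.42 for H3c3, -0.39 for H3c6 and -0.37 for H3c7. In H2B they were -0.28 for H2bc15 and -0.49 for H2bc14, and in H2A -0.60 for H2ac20, -0.51 for H2ac4 and -0.57 for H2ac15. Of these 14 genes the smallest adjusted P was 0.554. Per kb of coding sequence H2bc3 led H2B, and it had -0.39 (SE 0.25, edgeR adjusted P = 0.616). H4c4, highest of the core histone genes on that scale, was among the 13 H4 genes that were all lower.

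Vehicle tumor 4 stood apart from the other vehicle tumors in this family. It was the lowest vehicle tumor in 47 of the 53 genes (88.7%) and in 22.1% of all genes tested, and its level was a median of 0.444 of the median of the other vehicle tumors, against 1.00 for all genes. Without it, the median log2 fold change of the histone genes was -0.58, the ratio of the sums was 0.689, and 38 of 54 tested genes had an unadjusted P under 0.05 and were lower, against 8.06% of all genes, with 0 called (smallest adjusted P 0.154, edgeR). H4c14 then had a log2 fold change of -0.62 and H2ac8 of -0.79. As the lowest vehicle tumor in most of these genes, it narrows the difference when kept, and leaving out any other tumor gave a median log2 fold change of -0.52 (without liraglutide tumor 2) to -0.30 (without vehicle tumor 2) and 17 to 1 genes with an unadjusted P under 0.05. In that tumor the summed leukocyte markers were 576 CPM and the fibroblast markers 1791 CPM, the highest and the second lowest of the vehicle tumors, and the part of either in its histone level was not tested.

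**Figure D4:**
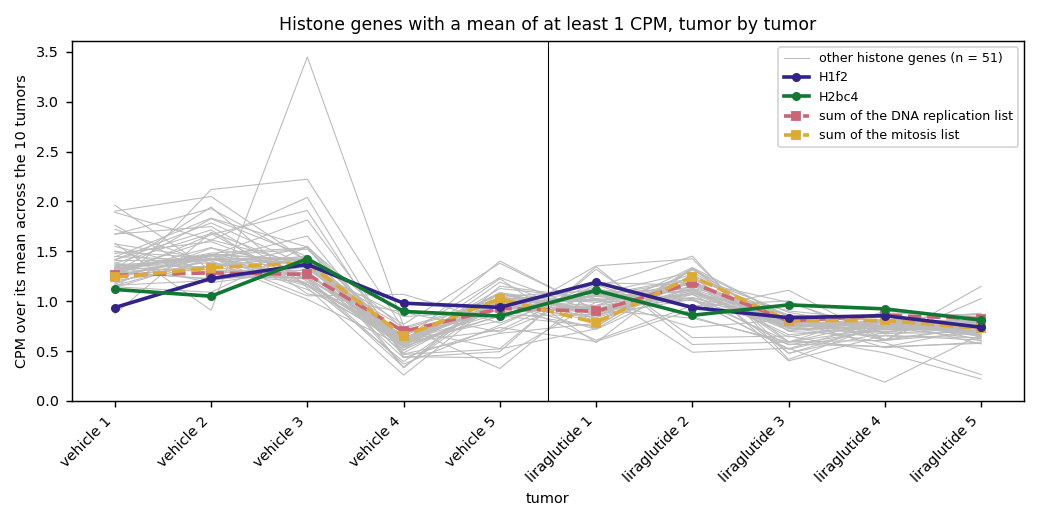
CPM of each histone gene divided by its own mean over the 10 tumors, for the 53 genes with a mean of at least 1 CPM. Grey lines are single genes, H1f2 and H2bc4 are drawn in colour, and dashed lines are the summed DNA replication and mitosis lists. Most genes are low in vehicle tumor 4, while H1f2 and H2bc4 are near 1 there.

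The family had a larger median spread between tumors than genes at large. Over all 10 tumors the SD of log2 CPM was a median of 0.481 over the 53 genes and 0.339 over all genes. H1f2 and H2bc4 were the steadiest, at SDs of 0.276 and 0.245 (H2bc4 was singled out after its values were seen). H1f2 was at 164, 215, 239.5, 171 and 164 CPM in vehicle tumors 1 to 5 and at 208, 164, 146, 149.5 and 129 CPM in liraglutide tumors 1 to 5, with a log2 fold change of -0.26 (SE 0.15, edgeR adjusted P = 0.599) and one of -0.16 without vehicle tumor 3. Vehicle tumor 4 was in the middle of its group, at 0.905 of the median of the other vehicle tumors. Its share of H1 counts therefore ran from 24.8% in vehicle tumor 1 to 43.0% in vehicle tumor 4.

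H2bc4 (chr13:23867631-23878163, plus strand) was at 54.9, 51.6, 70.03, 44.1 and 41.8 CPM in vehicle tumors 1 to 5 and at 54.4, 42.2, 47.3, 45.3 and 39.8 CPM in liraglutide tumors 1 to 5. These values hardly separated the tumors, and vehicle tumor 4 was above vehicle tumor 5. Its share of H2B counts ran from 10.9% in vehicle tumor 2 to 20.6% in vehicle tumor 4, with a log2 fold change of -0.20 (SE 0.15, edgeR adjusted P = 0.670) and one of -0.066 without vehicle tumor 3. The M39 model of H2bc4 reaches 9518 genomic bases past the stem-loop and overlaps H2ac6 on the other strand, and only 5.38% of its coding windows were unique. Over the 14 tested genes whose model ends more than 500 bases past the stem-loop, the median SD was 0.470 and the median log2 fold change -0.40, and over the other 37 with a stem-loop 0.499 and -0.39. The genes with no stem-loop found differed more, with log2 fold changes of -0.83 for H2ac22 (at most 31 counts in a tumor) and -0.79 for H2bc21. Their SDs were 0.826 and 0.851. Without H1f2 and H2bc4 the ratio of the histone sums was 0.749.

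Fold changes were also read by position. The median log2 fold change was -0.40 for the 27 tested genes of the large chromosome 13 stretch, -0.38 for the 14 at chr13:21899933-22021700, -0.37 for the 5 at chr13:22219334-22227846, -0.54 for the 4 on chromosome 3 and -0.44 for the 2 on chromosome 11 (H2ac25 and H2bc26). H4c16, alone on chromosome 6, had -0.35, and -0.22 without vehicle tumor 1. H2bc26, the gene with the highest level per kb of exon on chromosome 11, had -0.43 (adjusted P = 0.706), and -0.14 without vehicle tumor 1. No test of a difference between stretches was made.

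Most of the replacement histones are made throughout the cell cycle, and most come from messengers with poly(A) tails. Of 9 tested, 8 were lower and 1 higher, with a median log2 fold change of -0.19 and none called. H2az1, the H2A.Z variant found at promoters, was at 143, 130.4, 162, 124 and 177 CPM in vehicle tumors 1 to 5 and at 123, 119, 105, 114 and 93.2 CPM in liraglutide tumors 1 to 5. All 5 liraglutide tumors were below all vehicle tumors, by a narrow margin, as in 0.888% of all genes tested. The log2 fold change was -0.41 (SE 0.12, edgeR adjusted P = 0.482) and the exact permutation P 0.00794, the smallest possible. That permutation P is not adjusted for the choice among the 9 genes. Cenpa, the histone H3 variant of centromeres, had -0.45, H3f3b -0.29 and H3f3a -0.10, the latter pair encoding H3.3, and these were -0.15 without vehicle tumor 2 and -0.053 without vehicle tumor 4. H2ax, which is phosphorylated at DNA breaks, had -0.23 and the linker histone H1f0 -0.19, which without vehicle tumor 3 were -0.14 and -0.041. Macroh2a1 and H2az2 both had -0.02, and H2aj had 0.06.

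Other genes of the pathway were read from lists. Of the DNA replication genes, 42 of 47 were lower and 5 higher, with a median of -0.24, which was -0.15 without vehicle tumor 3 and -0.37 without vehicle tumor 4. At an unadjusted P under 0.05, 3 of the 47 (6.38%) were lower and 0 higher, where 5.62% of all genes were lower. Rfc4, a subunit of the clamp loader, was at 24.04, 24.3, 21.00, 17.3 and 15.6 CPM in vehicle tumors 1 to 5 and at 13.7, 15.8, 10.8, 10.01 and 12.3 CPM in liraglutide tumors 1 to 5, and Ccne2, the cyclin E2 gene of S phase entry, at 26.04, 26.4, 26.2, 18.7 and 17.5 CPM in vehicle tumors 1 to 5 and at 14.3, 20.7, 16.2, 16.5 and 16.2 CPM in liraglutide tumors 1 to 5. In both genes vehicle tumors 1 to 3 were above all liraglutide tumors, with a log2 fold change of -0.71 (SE 0.17, edgeR adjusted P = 0.482) and a log2 fold change of -0.45 (SE 0.16, edgeR adjusted P = 0.482). Of the mitosis genes 22 of 22 were lower, with a median of -0.40, the same as for the histone genes. Ccnb1, cyclin B1, had -0.47 and Hmmr, a spindle protein, -0.42. Vehicle tumor 4 was the lowest vehicle tumor in 34 of the 47 replication and 21 of the 22 mitosis genes.

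Set beside DNA replication, the histone sum went with it from tumor to tumor. Histone CPM per CPM of the 47 replication genes was 0.786, 0.866, 0.843, 0.729 and 0.834 in vehicle tumors 1 to 5 and 0.822, 0.748, 0.750, 0.699 and 0.692 in liraglutide tumors 1 to 5. The ratio differed little between tumors, although the histone sum itself had a highest over lowest value of 2.18. It was 0.812 ± 0.0543 with vehicle and 0.742 ± 0.0520 with liraglutide (SD, n = 5), and the groups overlapped. The lowest values were those of liraglutide tumors 4 and 5 and of vehicle tumor 4.

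**Figure D5:**
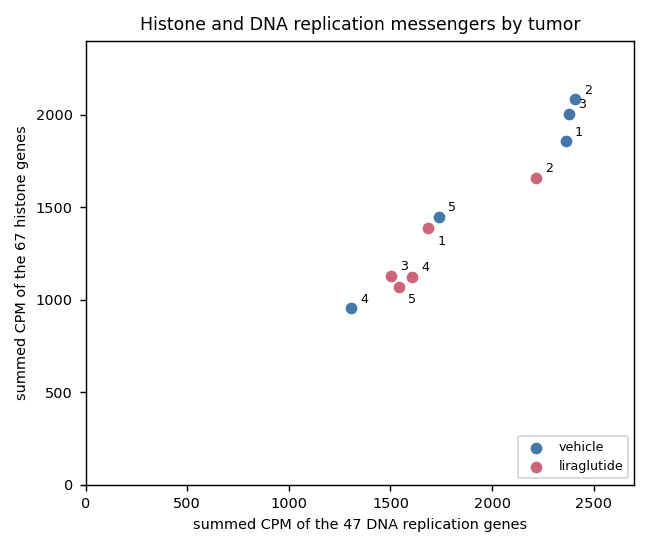
Summed CPM of the 67 histone genes against that of the 47 DNA replication genes, 1 point per tumor with its number, blue for vehicle and red for liraglutide. Both sums rise together, from vehicle tumor 4 at the lower end to vehicle tumors 1, 2 and 3 at the upper end.

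The factors that make histone messengers showed medians nearer 0. Of 29 genes of histone transcription and 3′ processing, 17 were lower and 12 higher, with a median of -0.07, which was -0.041 without liraglutide tumor 3. Slbp was at 48.7, 45.1, 52.6, 34.9 and 28.4 CPM in vehicle tumors 1 to 5 and at 36.2, 47.4, 32.3, 33.8 and 34.5 CPM in liraglutide tumors 1 to 5. It was highest in vehicle tumors 1 and 3 and liraglutide tumor 2, with a log2 fold change of -0.19 (SE 0.18, edgeR adjusted P = 0.730). Npat was at 82.5, 81.8, 78.9, 86.6 and 64.4 CPM in vehicle tumors 1 to 5 and at 83.7, 86.7, 81.6, 77.7 and 72.9 CPM in liraglutide tumors 1 to 5, with no separation of the groups and a log2 fold change of 0.03 (adjusted P = 0.930). Ncbp1, a subunit of the cap-binding complex, had -0.45. Slirp, which had -0.46, was also in the list, although its known role is with mitochondrial messengers, and the other 28 genes had a median of -0.07 (16 lower and 12 higher). Rnu7, the U7 RNA, was listed at 0 in all 10 tumors.

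Of 28 histone chaperones and assembly factors, 21 were lower and 7 higher, with a median of -0.10, which was -0.18 without vehicle tumor 4. Nap1l1, which carries H2A and H2B, had -0.49 (adjusted P = 0.482) and Npm1, nucleophosmin, -0.50 (adjusted P = 0.484). Of 16 other transcripts without a poly(A) tail, 12 were in the table, 7 of them at 0, and 4 could be tested, all lower, with a median of -0.29, which was -0.18 without liraglutide tumor 5. Rpph1, the RNA of RNase P, was at 1564, 1763, 2555, 2590.4 and 1883 CPM in vehicle tumors 1 to 5 and at 2176, 1437, 1857, 1632 and 1442 CPM in liraglutide tumors 1 to 5. It was highest in vehicle tumors 3 and 4, while the other 3 tested transcripts of this list were lowest of the vehicle tumors in vehicle tumor 4, as most histone genes were. Rny1 had a log2 fold change of -0.56. None of the pathway genes was called.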

How the data were processed

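The 10 tumors were sequenced as 100-base read pairs after ribosomal RNA depletion. The authors deposited raw counts per gene, whole numbers from read pairs aligned by TopHat 2.0.13 (with Bowtie 1.0.1) and assigned to genes by featureCounts. The study's methods name GRCm39 and the submitters' processing notes list mm10 and GRCh38, so the build of the counts is uncertain, and the strand setting and the handling of reads with several matches are not given in the sources used here. Groups and tumor numbers came from the sample titles, and all columns were used. The tumors came from separate mice, and the alleles of the injected line are not reported here.

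Of the identifiers, 51731 (93.4%) could be matched, version aside, to GENCODE M39. Symbols, positions (GRCm39), lengths and coding sequences were taken from it. Only 35 had the same version there. Stem-loops and 100-base windows were read from GRCm39, promoters from RefSeq. Counts were filtered with filterByExpr (17464 genes left), scaled by TMM and tested with edgeR 4.0.16 in R 4.3.3 (quasi-likelihood, treatment alone, Benjamini-Hochberg over all genes, called at adjusted P under 0.05). The study used DESeq2, run here as an alternative (1.42.0), beside limma-voom (limma 3.58.1), other scalings and filters, a robust fit, a block by tumor number and leaving out each tumor. Permutation tests were exact and two-sided over log2 CPM. The script of the main test was tested on simulated data. Total counts of 9927942 to 14480593 limit low genes, and floors at 3 counts cover counting error alone.

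The genes and lists were chosen with earlier results of these data known. Named are, in each class, the 3 genes with the highest CPM per kb of exon, the 5 genes higher and the 5 lower with the smallest P (none was higher), H1f1 to H1f5, the gene with the highest CPM per kb of exon on each chromosome, the 2 genes of smallest P in each pathway list, all replacement histones tested, Slbp and Npat. H2bc3, H2bc4, H2ac6, H2bc22, H4c4 and the genes with few or no counts were named after their values were seen. H2ac22 and H2bc21 were named for the missing stem-loop.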

Additional observations from a re-analysis of the deposited data

Results flagged for a closer look

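By Dixon's test, applied to 67 quantities in each group of 5 tumors (134 groups), 7 values stood apart from the rest of their group, and chance gives about 1 in 20. Of these, 6 were the highest value of liraglutide tumor 2. The gap was seen in the summed level of the mitosis genes (2986 CPM, with the next tumor at 1933), of the DNA replication genes (2217 CPM, next 1685) and of the histone transcription and 3′ processing genes (2068 CPM, next 1819). It was also seen in Nap1l1 (374 CPM, next 267), Slbp (47.4 CPM, next 36.2) and the histone gene H1f1 (97.4 CPM, next 50.8). The remaining value was H4c14 in vehicle tumor 4, at 25.7 CPM, where the next vehicle tumor was at 47.5 CPM.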

How the results depend on the processing

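All 414 refits of 23 histone genes, those of the naming rule and H2bc4, kept a negative log2 fold change and none was called. Other counts changed. DESeq2 called 52 genes in all, of which none was a histone gene, but only 5 histone genes kept an adjusted P after its filter. Histone genes with an unadjusted P under 0.05 were 4 in the main fit, 7 by DESeq2, 1 by limma-voom, 9 with all genes of at least 1 count, and 1 to 38 when a tumor was left out, 38 without vehicle tumor 4 and 17 without liraglutide tumor 2. All were lower. Of the histone genes these are 7.55%, 13.2%, 1.89%, 15.3%, 70.4% and 31.5%, where of all genes 5.62%, 5.81%, 5.09%, 3.60%, 8.06% and 7.95% were lower. Without vehicle tumor 1, 2 or 3 or liraglutide tumor 3, 4 or 5 it was 1 histone gene each, below the share of all genes. The cause was not tested. Leaving out a tumor gave 0 to 1 histone genes that were higher, a median log2 fold change of -0.58 to -0.30 and a ratio of the sums of 0.689 to 0.813. The other settings gave medians of -0.41 to -0.34. The sign turned for H2ac13 (from -0.21 to 0.053 without vehicle tumor 1), H4c2 (from -0.26 to 0.029 without vehicle tumor 2) and H2bc22 (from -0.10 to 0.082 without vehicle tumor 3 and 0.074 without liraglutide tumor 3).

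With the tumor number as a block, 19 of 53 histone genes (35.8%) were lower at an unadjusted P under 0.05, against 7.31% of all genes, the median of the 53 was -0.36 and none was called. The labels do not say that a number marks anything shared, and the correlation of deviations was above 0.1 in 3 of the 5 same-numbered pairs and not in the others, so the numbers were not taken to pair the tumors. Its mean was 0.260 for the same number and -0.068 for other numbers, and 3 of the 10 tumors correlated best with their own number.

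With a tumor left out, the class medians ran from -0.56 to -0.28 for H1, -0.78 to -0.40 for H2A, -0.54 to -0.25 for H2B, -0.59 to -0.30 for H3 and -0.54 to -0.29 for H4, and that of the replacement histones from -0.32 (without vehicle tumor 4) to -0.067 (without vehicle tumor 3). Leaving Slirp out of the transcription and 3′ processing list, a choice made after seeing the data, left its median at -0.07. Leaving out 1 tumor brought the log2 fold change nearer 0 by over 1.5 times, or past 0, in 8 of these 23 histone genes (H1f2, H1f3, H2ac15, H2bc4, H2bc15, H2bc26, H3c7 and H4c16) and in 10 of 21 named pathway genes (Slbp to -0.089 without vehicle tumor 3). Among the named pathway genes the sign turned for H2az2, Macroh2a1, H2aj and Npat. H2az2 was at 0.032 with library size alone, 0.0048 with at least 10 counts in every tumor and -0.093 to 0.105 with a tumor left out. Macroh2a1 was at 0.036, 0.0056 and -0.049 to 0.027 in the same settings, H2aj at -0.026 to 0.121 and Npat at -0.028 to 0.074 with a tumor left out. The spread between 5 tumors a group limits all these values, and depth limits the 7 tested histone genes with under 50 counts in their highest tumor.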
